A study of Mus musculus with 2 samples.

Results

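The miR-30 family was measured in sperm of naive WT mice by small RNA-seq, which counts the reads that match each mature miR. The family was taken by name as miR-30a, miR-30b, miR-30c, miR-30d and miR-30e with both arms of every hairpin. This gave 11 of the 1886 mature miR entries in the deposited counts, 5 of them 5p arms and 6 of them 3p arms. Both libraries came from wild-type C57BL/6J mice labelled as 3 months old and naive, and the study describes them as independent biological replicates. The number of mice behind each library is not given in the sources used here. No EE or home-cage group was analysed here, so conditions were not compared for these miRs. The names of the deposited counts carry a post-treatment tag that the labels do not explain.

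A miR is cut from a hairpin RNA whose 5p and 3p arms can each be loaded into an Argonaute protein. The loaded arm pairs with target mRNAs mainly through its seed, the bases from position 2 to position 8, and lowers their translation and stability. The 5p arms of the miR-30 family share 1 seed and are among the common miRs of epithelia such as kidney, where they are known for keeping cells in a differentiated state. miR-30a is also known as a repressor of the autophagy factor Beclin 1 and of the neurotrophin BDNF. In mouse sperm, miR-30a and miR-30c have been listed by others among the miRs that respond to paternal stress.

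The mature sequences are shown because they decide which members a read can tell apart. RefSeq sequences on GRCm38.p6, the build of the mouse genome named in the processing notes, were matched to 7 of the 11 entries, and these 7 held 80.8% of the family's reads in replicate 1 and 86.2% in replicate 2. The entries without a matched sequence were both arms of miR-30b and of miR-30d. Capitals mark the seed, and all sequences are written 5′ to 3′.
miR-30a-5p: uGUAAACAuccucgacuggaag
miR-30e-5p: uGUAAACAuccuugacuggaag
miR-30c-5p: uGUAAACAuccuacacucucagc
miR-30a-3p: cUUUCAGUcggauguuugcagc
miR-30e-3p: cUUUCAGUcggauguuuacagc
miR-30c-2-3p: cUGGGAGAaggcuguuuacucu
miR-30c-1-3p: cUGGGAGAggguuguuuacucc
The 3 matched 5p arms shared the seed GUAAACA, and the 4 matched 3p arms fell into 2 seeds. miR-30a-3p and miR-30e-3p carried UUUCAGU, and both miR-30c 3p arms carried UGGGAGA. All 3 matched 5p arms began with U and all 4 matched 3p arms began with C. With positions counted from 1 at the 5′ end, miR-30e-5p differed from miR-30a-5p by the single substitution C13U. miR-30e-3p differed from miR-30a-3p by G18A alone. The 3p arms of the 2 miR-30c hairpins differed by A9G, C12U and U22C, given from miR-30c-2-3p to miR-30c-1-3p.

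The shortest read kept by the authors was 15 nt, and their first mapping step to miR and piRNA sequences allowed 0 mismatches. Among the 21 pairs of matched entries, the longest run of bases in common was at least 15 nt in 1 pair. This pair was miR-30a-3p and miR-30e-3p, which share their first 17 nt, so a read of 15 to 17 nt from that end would fit both. The matched 5p arms shared no more than 12 nt with each other, so a read of the minimum length without mismatches fits only 1 of these 3. The arms of miR-30b and miR-30d were not compared. Runs in common with any other mature miR of the RefSeq table were at most 10 nt. Which mapping step gave the miR counts is not given in the sources used here.

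The 4 matched hairpins lie in 2 clusters. Mir30a (chr1:23272269-23272339) and Mir30c-2 (chr1:23291701-23291784) lie on the plus strand of chromosome 1 with 19361 bases between them. In the GENCODE annotation, Mir30c-2 falls in the exon of a long non-coding RNA, Gm27028 (ENSMUSG00000097970.1), and no other gene overlaps Mir30a. Mir30c-1 (chr4:120769534-120769622) and Mir30e (chr4:120772606-120772697) lie on the minus strand of chromosome 4 with 2983 bases between them. Both are intronic in all 6 annotated transcripts of Nfyc (ENSMUSG00000032897.17) that span them, the gene of a subunit of the transcription factor NF-Y. The annotation also places Mir30f on the opposite strand over the span of Mir30e, and it was not analysed here. As Mir30c-1 and Mir30c-2 give the same 5p sequence, miR-30c-5p is 1 entry fed by both clusters, while the 3p arms have separate entries.

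Every one of the 11 entries was detected, with 1 read or more in both libraries, which was true of 20% of all 1886 entries. With at least 100 reads in each library 7 of the 11 entries passed, against 6.52% of all entries. The family took 52701 of the 4049599 miR reads of replicate 1 and 64741 of the 5648067 miR reads of replicate 2. The share was 1.30% in replicate 1 (Wilson 95% interval 1.29% to 1.31%) and 1.15% in replicate 2 (1.14% to 1.16%), or 1.22% ± 0.110 on average (SD, n = 2 libraries). This difference between the libraries exceeded counting error. The reads carry no molecular identifiers, so all intervals given here cover counting error only. In a bulk sample, fewer cells that hold a miR and less of it per cell cannot be told apart. The share also depends on the other miRs in the total. The log2 ratio of the family's share in replicate 2 to that in replicate 1 was -0.18. TMM scaling, used further below, adds 0.33 to it, which turns the sign.

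RNA of other cells could enter these values, since miR-30 members are found in many tissues. The sperm were left to swim out of the epididymis into warm PBS and were then treated with a hypotonic detergent buffer to disrupt somatic cells. Of the miR reads, marker miRs of smooth muscle and stroma took 4.13% in replicate 1 and 6.26% in replicate 2, with 8 of 9 entries detected in both libraries. Epithelial markers took 1.08% and 0.886% (12 of 14 entries), and blood markers took 0.333% and 0.722% (9 of 11 entries). Germ-cell markers took 0.394% and 0.166%, with 10 of 18 entries detected in both libraries. Of that set, miR-449c, miR-741, miR-743b, miR-871 and miR-880 had no read. The set is a chosen list and leaves out related testis miRs such as miR-470-5p, with 5916 reads in replicate 1 and 3105 in replicate 2. Brain markers took 0.0432% and 0.0186% (5 of 10 entries), and skeletal muscle markers 0.00222% and 0.00239% (2 of 9 entries, with miR-133b at no read). Most reads of each set came from 1 entry. These entries were miR-143-3p for smooth muscle and stroma, miR-141-3p for epithelium and miR-486-5p for blood. They were miR-34c-5p for germ cells, miR-9-5p for brain and miR-133a-3p for skeletal muscle. miR-143-3p alone held 165421 of 167378 reads of its set in replicate 1 and 349579 of 353450 in replicate 2. The part of the cells marked by these sets in the miR-30 counts was not tested.

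Abundance is given as CPM, the reads of an entry per 1000000 miR reads of its library, as mean ± SD over the 2 libraries. miR-30a-5p led the family. It was read 39822 times in replicate 1 and 52527 times in replicate 2, which is 9834 and 9300 CPM. Its mean of 9567 ± 377 CPM (SD, n = 2) was the 7th highest of the 378 miRs with a read in each library. miR-30d-5p came second, read 9219 times in replicate 1 and 8125 times in replicate 2. At 2277 and 1439 CPM, its mean was 1858 ± 593 CPM (SD, n = 2) and its rank the 20th. Of the other 9 entries, none exceeded the 1444 reads of miR-30e-5p in replicate 2.

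The remaining 5p arms lay between 125 and 261 CPM in each library. miR-30e-5p, 1 base away from miR-30a-5p, was read 1058 and 1444 times, which averages 258 ± 3.96 CPM (SD, n = 2). For miR-30b-5p the counts were 821 and 747 and the mean was 167 ± 49.8 CPM (SD, n = 2). For miR-30c-5p, which 2 hairpins can produce, they were 607 and 706, with a mean of 137 ± 17.6 CPM (SD, n = 2). These 5p arms ranked 51st, 59th and 67th among the detected miRs.

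The 3p arms are usually the less used strand of miR-30 hairpins. miR-30a-3p was the most abundant of them, read 607 and 593 times, a mean of 127 ± 31.7 CPM (SD, n = 2). miR-30e-3p was read 361 and 416 times, a mean of 81.4 ± 10.95 CPM (SD, n = 2). The other 4 lay far lower. The counts of miR-30c-2-3p were 121 and 91 (23.0 ± 9.74 CPM), and those of miR-30d-3p were 55 and 53 (11.5 ± 2.97 CPM). miR-30c-1-3p, from the Nfyc locus, was read 23 and 27 times (5.23 ± 0.636 CPM). miR-30b-3p closed the list with counts of 7 and 12 (1.93 ± 0.280 CPM), where 3 reads correspond to 0.741 CPM in replicate 1 and 0.531 CPM in replicate 2. Its Wilson 95% interval ran from 0.837 to 3.57 CPM in replicate 1 and from 1.22 to 3.71 CPM in replicate 2.

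**Figure D1:**
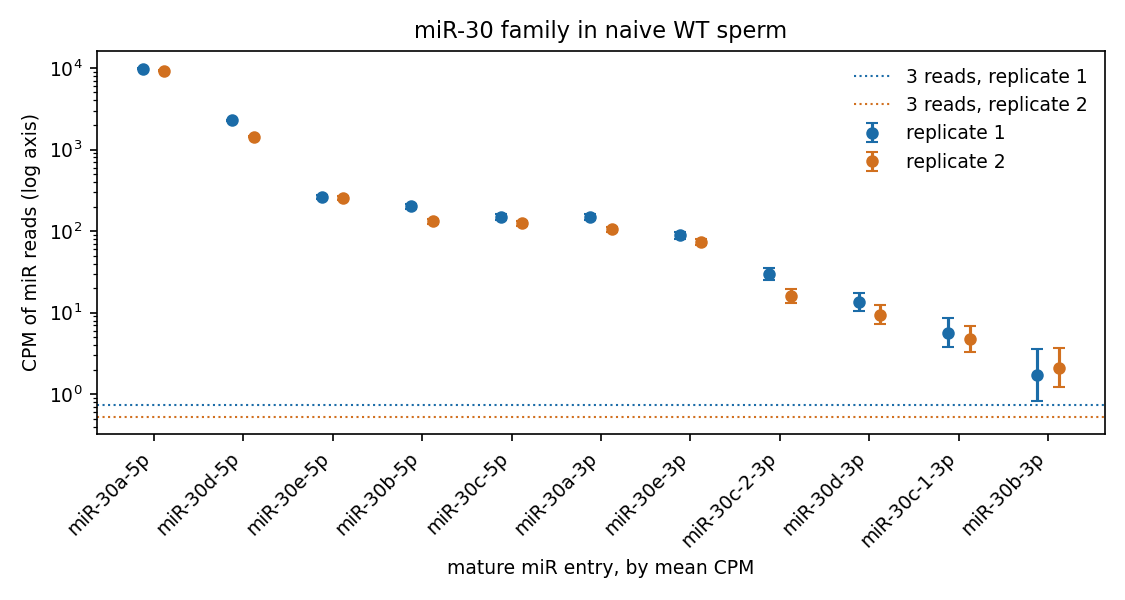
CPM of miR reads (log axis) of the 11 miR-30 entries in replicate 1 and replicate 2, ordered by mean CPM, with Wilson 95% intervals as bars and dotted lines at the CPM of 3 reads in each library. The entries span from 9567 CPM for miR-30a-5p to 1.93 CPM for miR-30b-3p, and the points of all 11 lie above the dotted lines.

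Ordered by mean CPM, the 11 entries form 10 pairs of neighbours. In 8 pairs the higher entry exceeded the lower one in every library, with no overlap of their values. The values overlapped between miR-30b-5p and miR-30c-5p, and between miR-30c-5p and miR-30a-3p. The order was the same within each library for 9 of the 10 pairs, and miR-30c-5p and miR-30a-3p had equal reads in replicate 1. The order within a library does not depend on how the libraries are scaled. With 2 libraries no permutation test can pass p = 0.05, so none was made.

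**Figure D2:**
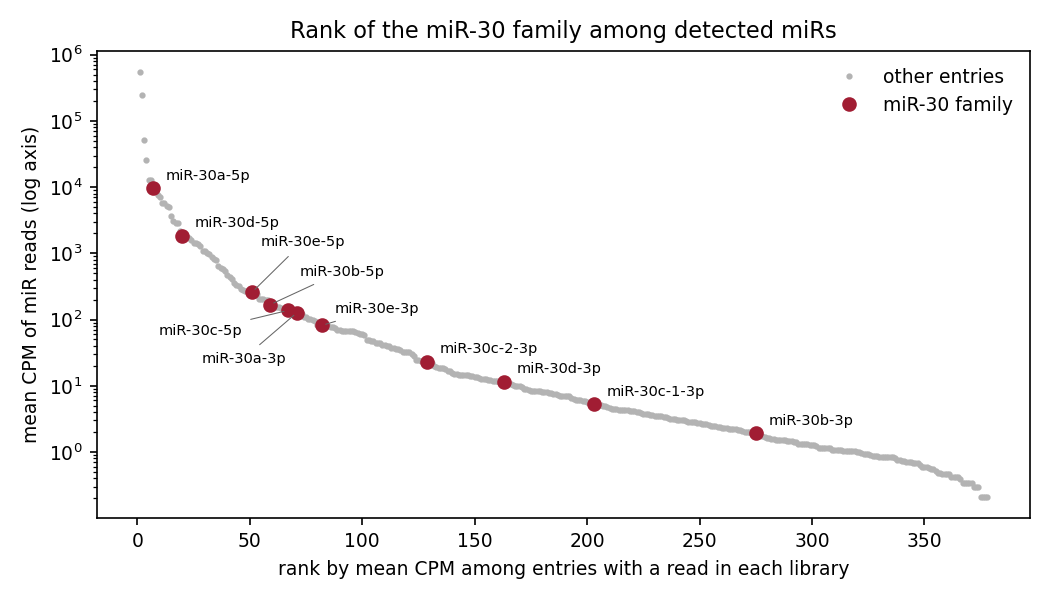
Mean CPM of miR reads (log axis) against rank for the 378 miRs with a read in each library, with the miR-30 entries in red and all others in grey. The family reaches from the 7th rank of miR-30a-5p and the 20th of miR-30d-5p to miR-30b-3p, which shares its mean CPM with 2 other miRs at ranks 274 to 276.

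The seed GUAAACA was thus carried mostly by miR-30a-5p. The entries with a matched GUAAACA sequence summed to 10245 CPM in replicate 1 and 9681 CPM in replicate 2. The UUUCAGU pair summed to 239 and 179 CPM, and the UGGGAGA pair to 35.6 and 20.9 CPM. Outside the family, 1 other entry with a matched sequence had the seed GUAAACA. This is miR-384-5p, a brain-enriched miR, which reads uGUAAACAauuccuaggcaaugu. Replicate 1 held 0 reads of it, which allows a level of up to 0.741 CPM, and replicate 2 held 3, which is 0.531 CPM. miR-6958-5p, with the seed UGGGAGA, had no read in either library.

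Shares within the family do not depend on the scaling of a library. miR-30a-5p took 75.6% of the family's reads in replicate 1 and 81.1% in replicate 2, a mean of 78.3% ± 3.94 (SD, n = 2). miR-30d-5p took 17.5% and 12.6%, a mean of 15.02% ± 3.50 (SD, n = 2). With both arms summed, miR-30e took 2.78% ± 0.128 of the family's reads, miR-30b 1.37% ± 0.282 and miR-30c 1.35% ± 0.108 (SD, n = 2 each). The family of naive WT sperm was therefore mainly miR-30a in both libraries, with miR-30d second.

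Ratios between members were compared within each library, with 95% intervals from the Wilson limits. miR-30a-5p outnumbered miR-30e-5p, from which it differs at 1 base, by 37.6 to 1 in replicate 1 (35.4 to 40.0) and by 36.4 to 1 in replicate 2 (34.5 to 38.3). The 3p arms of the same hairpins, which also differ at 1 base, stood at only 1.68 to 1 (1.48 to 1.92) and 1.43 to 1 (1.26 to 1.62). The hairpins therefore differed far more in their 5p reads than in their 3p reads, in both libraries and by more than counting error. Reads of 15 to 17 nt could fit both of these 3p arms, and their share was not tested.

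miR-30d-5p and miR-30b-5p held a near-constant ratio of 11.2 to 1 in replicate 1 (10.5 to 12.1) and 10.9 to 1 in replicate 2 (10.1 to 11.7). The ratio of miR-30a-5p to miR-30d-5p moved from 4.32 (4.22 to 4.42) to 6.46 (6.32 to 6.62). The intervals of the first pair overlapped and those of the second did not. Among the 3p arms, miR-30e-3p exceeded miR-30c-1-3p, from the same Nfyc intron, by 15.7 to 1 (10.3 to 23.9) and 15.4 to 1 (10.5 to 22.7). On chromosome 1, miR-30a-3p exceeded miR-30c-2-3p by 5.02 to 1 (4.13 to 6.10) and 6.52 to 1 (5.23 to 8.12). For miR-30c itself, the 3p arm of Mir30c-2 exceeded that of Mir30c-1 by 5.26 to 1 (3.38 to 8.19) and 3.37 to 1 (2.20 to 5.16). Which hairpin the miR-30c-5p reads came from cannot be told from the counts.

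The hairpins of miR-30a and miR-30e are shown next, as their mature arms differ by 1 base each while their arm use differs. Capitals mark the 5p and 3p arms.
Mir30a: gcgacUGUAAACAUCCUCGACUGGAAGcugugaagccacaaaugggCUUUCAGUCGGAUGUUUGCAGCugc
Mir30e: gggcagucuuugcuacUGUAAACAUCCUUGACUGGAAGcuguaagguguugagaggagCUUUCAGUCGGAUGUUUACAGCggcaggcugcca
The arms are separated by 19 bases in Mir30a and 20 bases in Mir30e, and by 17 bases in Mir30c-2 and 16 bases in Mir30c-1.

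Over the whole family, the 5p arms held 97.8% of the reads in replicate 1 (Wilson 95% interval 97.6% to 97.9%) and 98.2% in replicate 2 (98.1% to 98.3%), a mean of 97.97% ± 0.273 (SD, n = 2). The members were not alike in this. The 5p share of miR-30d was 99.4% in both libraries, that of miR-30a was 98.5% and 98.9%, and that of miR-30b was 99.2% and 98.4%. miR-30c had 80.8% (77.9% to 83.5%) and 85.7% (83.1% to 87.9%), with the 3p reads of both its hairpins summed. miR-30e had the lowest 5p share, 74.6% (72.2% to 76.8%) in replicate 1 and 77.6% (75.7% to 79.5%) in replicate 2. Reads of 15 to 17 nt could fit both miR-30e-3p and miR-30a-3p. Their effect on the arm shares of miR-30e and miR-30a was not tested. The shares of miR-30c and miR-30e lay below those of the other 3 members in each library, without overlap of the intervals. Over the 10 entries other than miR-30a-5p, the 5p share was 90.6% ± 0.455 (SD, n = 2).

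Arm use was set beside that of all miRs with both arms listed and at least 100 reads in each library, 104 miRs in all. The more abundant arm held a median of 99.6% of the reads, with quartiles of 97.0% and 99.996%, and it was the 5p arm in 62 of the 104. Of these miRs, 5 had less one-sided arms than miR-30e and 7 had less one-sided arms than miR-30c. For miR-30a this number was 35, for miR-30b 39 and for miR-30d 48. miR-30e and miR-30c thus lay below the first quartile, and the other members between the first quartile and the median.

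**Figure D3:**
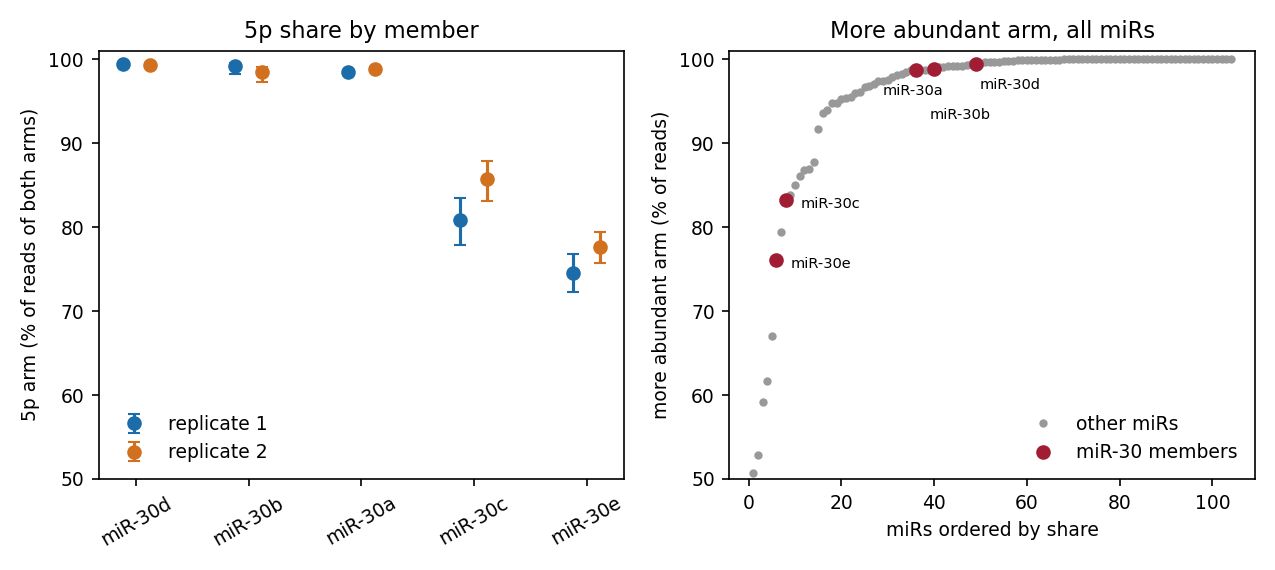
Left, 5p arm as a percentage of the reads of both arms for the 5 members in each library, with Wilson 95% intervals; right, mean percentage of the more abundant arm for 104 miRs in rising order, with the miR-30 members in red. Both vertical axes start at 50%. miR-30e (76.1%) and miR-30c (83.3%) lie in the steep part of the curve and the other 3 members above 98%.

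Replicates of 1 condition were compared to describe the spread behind these values. The log2 ratio of replicate 2 to replicate 1, on log2(CPM + 1), was below 0 for 10 of the 11 entries and had a median of -0.27. Over all 323 miRs whose 2 counts summed to 10 or more, the median was -0.25. With CPM per miR reads, the largest moves were those of miR-30c-2-3p at -0.85, miR-30d-5p at -0.66 and miR-30b-5p at -0.61. On the same scale, miR-30a-5p at -0.08 and miR-30e-5p at -0.03 stayed closest to 0. No entry of the family reached an absolute log2 ratio of 1, against 19.8% of the 323 miRs. The median absolute log2 ratio was 0.27 over the family and 0.49 over the 323 miRs. Over entries whose counts summed to 100 or more, it was 0.49 for the 9 family entries and 0.45 for all 165 miRs, so this gap rested on the cutoff.

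The direction of some of these ratios and much of their order by size rested on the scaling. TMM scaling shifted the median of all 323 miRs from -0.25 to 0.04 on the log2 scale, and the family then had 6 entries above 0 and 5 below with a median of 0.05. miR-30d-5p at -0.33, miR-30b-5p at -0.28 and miR-30c-2-3p at -0.54 kept their sign, whereas miR-30a-5p and miR-30e-5p turned to 0.25 and 0.30. After TMM scaling the largest moves in the family were those of miR-30c-2-3p and of miR-30b-3p, the latter at 0.41 from 7 and 12 reads. The entries closest to 0 were then miR-30e-3p at 0.05, miR-30c-5p at 0.07 and miR-30c-1-3p at 0.07. Beside this, the summed share of the marker sets, before TMM scaling, gave log2 ratios between the same libraries of 1.12 for blood, 0.60 for smooth muscle and stroma, 0.10 for skeletal muscle, -0.29 for epithelium, -1.21 for brain and -1.25 for germ cells. TMM scaling adds 0.33 to each of these summed values, which turns the sign for epithelium. The brain sum rested mostly on miR-9-5p, with 1653 of 1748 reads in replicate 1 and 939 of 1051 in replicate 2. Over single entries with 10 reads or more in the 2 libraries together, the median before TMM scaling was -0.14 for brain (5 entries). It was -0.05 for skeletal muscle (2 entries), 0.89 for blood (9) and 0.55 for smooth muscle and stroma (8). For epithelium it was -0.19 (11) and for germ cells -1.23 (10). In the blood, epithelial and brain sets, entries moved in opposite directions. From replicate 1 to replicate 2, miR-451a went from 44.2 to 88.9 CPM but miR-223-3p from 15.8 to 9.74 CPM. The blood median was that of miR-486a-3p, at 0.494 and 1.77 CPM. For epithelium, miR-205-5p went from 138 to 274 CPM but miR-429-3p from 1033 to 633 CPM. For brain, miR-9-5p went from 408 to 166 CPM but miR-129-5p from 2.22 to 6.37 CPM. Whether the cells marked by these sets took part in the differences of the miR-30 entries was not tested.

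**Figure D4:**
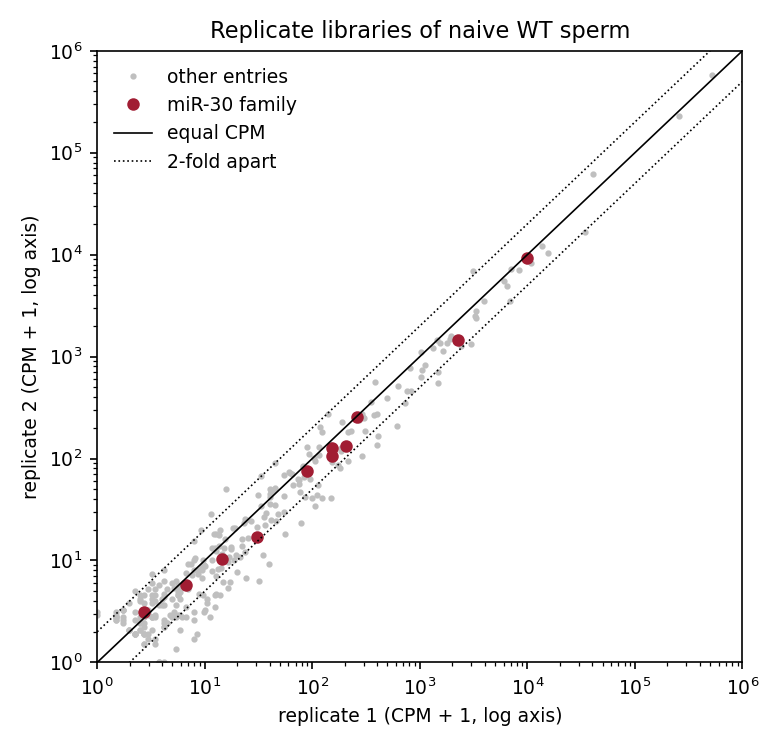
CPM + 1 of miR reads in replicate 2 against replicate 1 (both axes log) for the 323 miRs whose 2 counts summed to 10 or more, with the 11 miR-30 entries in red, a solid line at equal values and dotted lines where the values are 2-fold apart. All 11 red points lie between the dotted lines, and 10 of them lie below the solid line before TMM scaling.

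The entries most like miR-30a-5p were sought by the Euclidean distance on log2(CPM + 1) over the 2 libraries, outside the family. let-7f-5p was nearest at a distance of 0.21, with 9499 ± 1760 CPM (SD, n = 2). miR-141-3p followed at 0.46, with 7721 ± 911 CPM (SD, n = 2), and miR-182-5p at 0.61, with 12905 ± 939 CPM (SD, n = 2). The distance over 2 libraries of 1 condition reflects the level of these miRs and little else.

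As a whole, the miR-30 family lay between the let-7 family with miR-98 and the miR-200 family, an epithelial group. In replicate 1 and replicate 2, the let-7 family held 2.55% and 1.98% of the miR reads, and the miR-200 family held 1.06% and 0.855%. In each library the miR-30 family was below the first and above the second. The leading entry held 78.3% ± 3.94 (SD, n = 2) of the reads of the miR-30 family and 42.0% ± 0.251 (SD, n = 2) of those of the let-7 family, where it was let-7f-5p. In the miR-200 family, miR-141-3p held 80.7% ± 2.92 (SD, n = 2), a value that overlapped that of miR-30a-5p.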

How the data were processed

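The data are 2 small RNA libraries of sperm from naive WT mice. The authors trimmed ends below a Phred score of 28, removed adapters with cutadapt 1.8.1, kept reads from 15 nt and mapped them with Bowtie 1.1.2, without mismatches to miR and piRNA sequences first and with 1 mismatch later. The submitters' processing notes also name HTSeq and the builds mm10 and GRCm38. They deposited raw counts of reads for each mature miR, not pooled. The labels name a TruSeq kit for RNA and the methods a TruSeq kit for small RNA. The 5 summary rows of each table, 38.1% and 26.3% of the reads listed, were left out of the totals.

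CPM, shares, Wilson intervals and log2 ratios were computed with Python 3.11.15 and scipy 1.17.1. TMM factors came from edgeR 4.0.16 and size factors from DESeq2 1.42.0 (R 4.3.3). No test between conditions was possible. Arm shares leave out the 12 entries that join several names. The scaled log2 ratios, the rule for family names and the Wilson intervals were tested on simulated or made-up data. Named were all family entries, others with a family seed, the 3 entries nearest to the leading one and 2 families for comparison. Members, lists and marker sets were chosen with earlier results of these data known.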

Additional observations from a re-analysis of the deposited data

How the results depend on the processing

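The family's share of the miR reads, 1.22%, was 0.825% of all reads listed and 5.88% of the miR reads without miR-10a-5p and miR-10b-5p, as both settings change the denominator. With each library alone it was 1.15% or 1.30%. Of the 11 entries, 7 passed 100 reads in each library. The 5p share, 97.97%, was 90.6% without miR-30a-5p and 97.8% to 98.2% with each library alone. The median log2 ratio, -0.27, was 0.05 with TMM and 0.01 with DESeq2 size factors, moves smaller than the typical SD between the libraries, 0.35. TMM and DESeq2 moved none of the 11 mean CPM values by more than their SD. These scalings move the libraries in opposite directions, and either of 2 libraries is by construction within 1 SD of their mean, so neither result speaks for stability. Depth limits miR-30b-3p most, with 7 reads in replicate 1.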
